A study of Homo sapiens with 8 samples.

Results

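The sites described here are RNA segments enriched by precipitation of G3BP1 from untreated HEK293T cells. They are taken as every row of the deposited peak list for that condition. The list held 1421 peaks, out of 4346 in the series, which also holds a list for cells given the compound PDS that is not described here. HEK293T is an established cell line of human embryonic kidney origin that carries the SV40 large T antigen. The untreated cells received no agent, and 4 of the 8 libraries come from them: 2 replicates of a G3BP1 immunoprecipitation (IP) and 2 of the input made without the antibody. The assay was seCLIP, a crosslinking method in which the RNA held by the precipitated protein is sequenced and set against the input. The authors deposited 1 list for both replicates together, so each peak carries 1 fold and 1 p-value, both the authors' own. No SD could be computed and no test was made, and the labels do not say whether the replicates were separate cultures.

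G3BP1 is a cytoplasmic RNA-binding protein that assembles with RNA into stress granules, the condensates that form when translation initiation stalls. It joins a dimerisation domain to an RNA recognition motif and a tail rich in arginine and glycine. In a crosslinking assay a peak marks a stretch of RNA where IP reads exceed input reads, and 1 transcript can carry many peaks.

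Sites are identified by chromosome, strand and position on hg19, the build of the coordinates. The list pairs no peak with a gene, and a genome or annotation of hg19 was not used here. No gene, exon, intron or untranslated region is therefore assigned to any site, and no sequence is printed.

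Most peaks were enriched just above the lower limit of the list, and few were enriched strongly. The median log2 fold of IP over input was 3.52, the 10th percentile 3.10 and the 90th percentile 4.39. A log2 fold of 4 was reached by 313 peaks and a log2 fold of 5 by 38 (2.67%). Fold and −log10 p were positively correlated across the 1413 peaks with a measured p (Spearman rho 0.65, Pearson r 0.60). Fold was nearly unrelated to width across all 1421 (rho -0.03). Both are descriptions over peaks that share their libraries.

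Many peaks held exactly the same p-value. The list had 680 distinct −log10 p values, and 979 of 1413 peaks (69.3%, exact 95% binomial interval 66.8 to 71.7%) shared theirs with at least 1 other peak. The most frequent value, 5.49, was held by 26 peaks with log2 folds from 3.02 to 3.55 and widths from 22 to 199 nt. In 277 peaks (19.5%) the fold was shared as well.

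**Figure D1:**
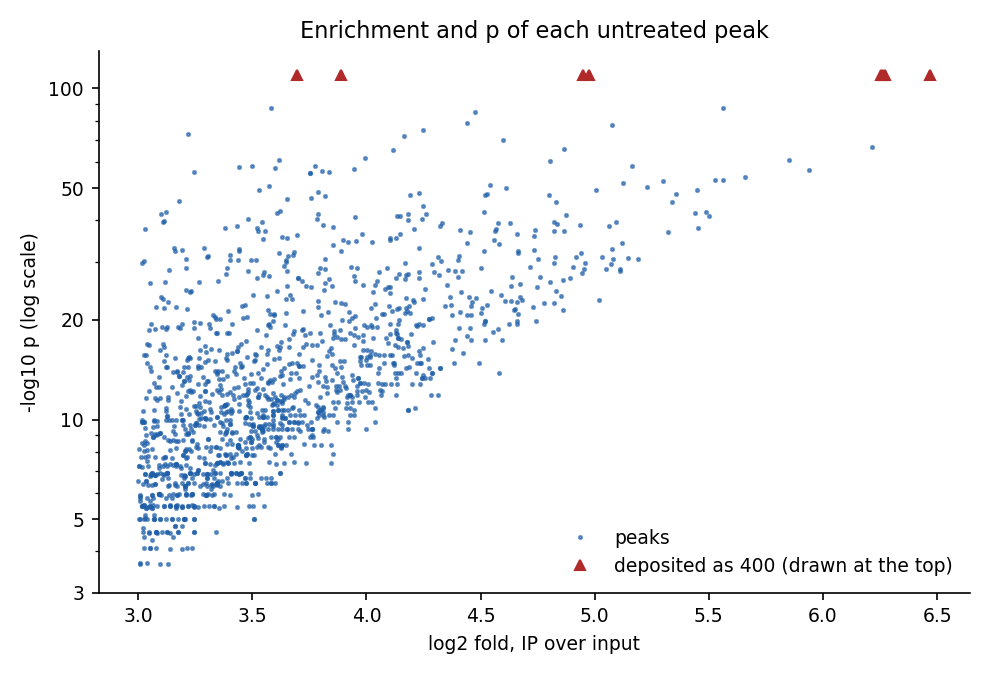
Each point is 1 of the 1421 untreated peaks, by log2 fold of IP over input (x axis) and −log10 p (y axis, log scale), both as deposited by the authors. Triangles are the 8 peaks deposited at a −log10 p of 400, drawn at the top, and horizontal rows of points at low values are peaks that share a −log10 p.

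A −log10 p of 400 stood in 8 peaks, with 87.3 as the next value, and was read as a stand-in. Of these 8, 4 lay on the minus strand of chromosome 8 between 99057602 and 99057757. The others were at X, minus strand, 112022538 to 112022641 (log2 fold 4.97), at 8, minus strand, 48739222 to 48739404 (4.95), at 7, minus strand, 5568113 to 5568245 (3.89), and at 19, minus strand, 6424505 to 6424617 (3.70). All 8 were on the minus strand, which held 56.0% of the 1421 peaks of the list. The 4 between 99057602 and 99057757 lie in the same short stretch, so the 8 are not independent sites. Whether peaks with the stand-in p favour a strand was not tested. The last pair had folds below the 75th percentile of the list (3.93), so peaks with the stand-in p were not all among the most enriched.

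The 5 highest log2 folds of the list belonged to 1 stretch of 171 nt, chromosome 8, minus strand, 99057602 to 99057772. In order of coordinate its peaks measured 22, 5, 2, 20 and 15 nt and had log2 folds of 6.27, 6.26, 6.47, 6.26 and 6.21. They formed an abutting pair and an abutting trio with 107 nt between them. The highest fold of the whole list was thus carried by a peak of 2 nt, and the values of the pieces beside it were nearly the same.

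Outside that stretch the highest log2 fold was 5.94, in a 147-nt peak on the plus strand of chromosome 19 (59060788 to 59060934). Counted 1 per locus, the following peaks were X, minus strand, 153593785 to 153593854 (5.85), X, minus strand, 112022370 to 112022487 (5.56), and 8, minus strand, 48711838 to 48711947 (5.56). Then came 3, plus strand, 184052822 to 184052915 (5.53), 16, plus strand, 30080629 to 30080706 (5.49), and 17, minus strand, 80036538 to 80036630 (5.45). The last 2 of the 10 were 1, plus strand, 220267512 to 220267668 (5.44) and 14, minus strand, 103986096 to 103986124 (5.32). The chromosome 1 peak was isolated, with its nearest same-strand neighbour 53252 nt away. Most of the others stood in crowded stretches: 7 of the 10 lay in loci with 8 or more peaks, as defined below. Those loci were 34 of all 688 and held 28.6% of peaks. A locus with more peaks offers more values from which its highest is taken, which favours such loci in this count.

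Peaks stood close to others on their own strand and far from those on the other strand. The median distance to the nearest same-strand peak was 713 nt, against 655681 nt to the nearest opposite-strand peak. A same-strand neighbour lay within 100 nt of 496 peaks (34.9%, 32.4 to 37.4%), within 1000 nt of 751 (52.9%, 50.2 to 55.5%) and within 10000 nt of 967 (68.1%, 65.6 to 70.5%). Part of this closeness came from pieces that abut or nearly abut: with peaks up to 50 nt apart merged into regions, 8.25% of regions had a same-strand neighbour within 100 nt and 35.1% within 1000 nt. An opposite-strand neighbour lay within 1000 nt of 7 peaks (0.493%) and within 10000 nt of 22 (1.55%), and the closest was 645 nt away. Neighbouring peaks are not independent, so the intervals cover counting error only.

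Gaps between successive peaks of a strand were mostly either up to 10000 nt or above 100000 nt. Of 1375 gaps, 158 were 0, 87 were 1 to 50 nt, 268 were longer but at most 1000 nt, and 220 more were at most 10000 nt. Between 10000 and 100000 nt there were 113, and 529 were longer still. Over the 575 gaps from 1 to 10000 nt the median was 530 nt, and they were spread over all lengths. The ranges 100 to 200, 200 to 500, 500 to 1000, 1000 to 2000, 2000 to 5000 and 5000 to 10000 nt held 65, 79, 74, 78, 93 and 49 gaps.

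**Figure D2:**
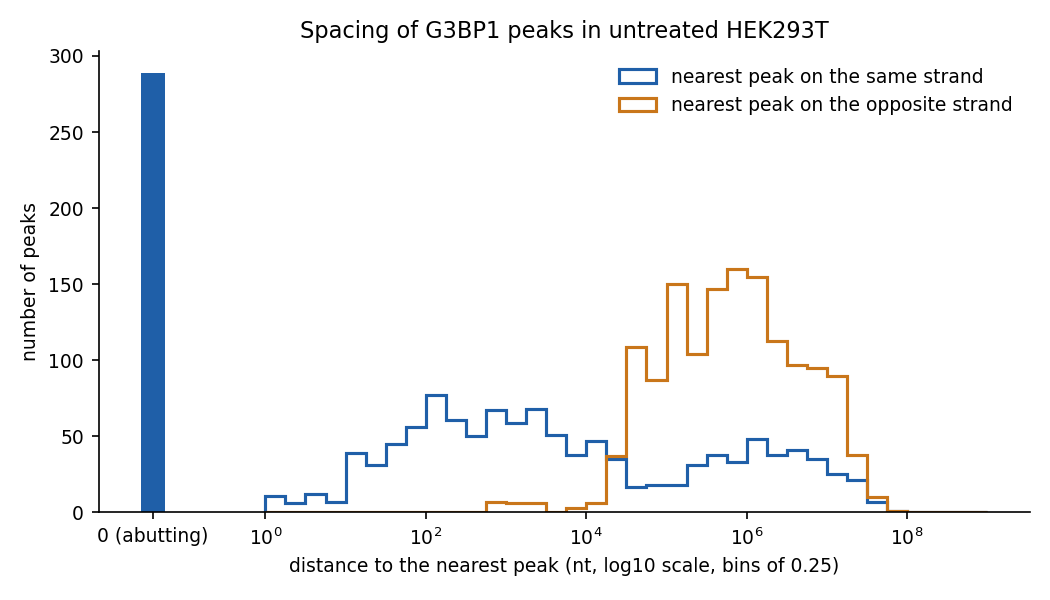
Distance from each peak to its nearest neighbour on the same strand (blue) and on the opposite strand (orange), in nt on a log10 scale, with the 289 peaks that abut another drawn as a bar at 0. Same-strand distances spread below 10000 nt with a further group at long range, and 0 peaks had an opposite-strand neighbour within 100 nt.

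Abutting peaks formed 131 runs that took in 289 peaks (20.3%, 18.3 to 22.5%). Pairs made up 112 of the runs, 13 had 3 peaks, 4 had 4 and 2 had 5. Run length ranged from 10 to 393 nt with a median of 115 nt. The log2 fold varied by 0.37 within a run at the median and by 2.16 at most. In the 112 pairs the upstream peak had the higher fold in 53, the downstream peak in 55 and neither in 4. The median log2 fold was 3.79 for peaks in runs and 3.47 for the 1132 others. The others included all 454 peaks that were alone in their locus, as defined below, which cannot be in a run and had a median of 3.37.

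Narrow peaks were more often pieces of runs. Of 92 peaks under 20 nt, 50 abutted another peak (54.3%, 43.6 to 64.8%). The share was 30.7% of 254 peaks from 20 to 49 nt, 17.9% of 697 from 50 to 99 nt, 11.6% of 294 from 100 nt to just under 150 nt and 2.38% of 84 wider peaks.

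The runs with most peaks differed in the course of their enrichment. On the plus strand of chromosome 7, 5 peaks covered 2394564 to 2394956 without a gap, and their log2 folds were 3.39, 4.17, 5.19, 3.67 and 3.03 from 5′ to 3′, with a single maximum in the middle. On the minus strand of chromosome X, 5 peaks covered 112022370 to 112022755, and from 5′ to 3′ the folds were 4.17, 3.79, 4.97, 5.50 and 5.56, highest at the 3′ edge. The 4 runs of 4 peaks were flatter. They lay at 19, minus strand, 49119982 to 49120082 (3.47 to 4.08), 14, minus strand, 103988168 to 103988238 (3.24 to 3.78), 17, minus strand, 8076860 to 8076908 (3.57 to 3.81) and 5, plus strand, 138614520 to 138614552 (3.11 to 3.76). The last pair covered only 49 and 33 nt but reached −log10 p values of 56.2 and 87.0, against a median of 11.9 in the list.

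Joining same-strand peaks up to 50 nt apart left 1176 regions, of which 185 held more than 1 peak and none more than 6. The longest was a region of 541 nt on the plus strand of chromosome 3 (184052555 to 184053095). Its 6 peaks had log2 folds of 3.59, 4.18, 5.45, 5.53, 4.94 and 4.53 from 5′ to 3′, again with an inner maximum. Next were 519 nt with 5 peaks at 19, plus strand, 59055944 to 59056462 (3.65 to 4.88) and 394 nt with 3 peaks at 2, plus strand, 54858091 to 54858484 (3.64 to 3.95). The chromosome 7 and chromosome X runs of 5 peaks completed the 5 longest.

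At the scale of transcripts, peaks were chained on each strand over gaps of up to 10000 nt. The resulting 688 loci stand in for transcription units, although a long intron can split 1 gene and close neighbours can share a locus. A single peak made up 454 loci (66.0%, 62.3 to 69.5%), while 181 held 2 to 4 peaks, 38 held 5 to 9 and 15 held 10 or more. The 10 loci with most peaks held 200 peaks (14.1%, 12.3 to 16.0%), and 111 loci held 713. The share of the first 10 was 8.09% when gaps of only up to 1000 nt were bridged. It was 29.4% among the 313 peaks with a log2 fold of at least 4, all of which also had a −log10 p of at least 5. Those peaks formed only 168 loci, so 10 loci were a larger part of them and the shares are not on the same footing.

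**Figure D3:**
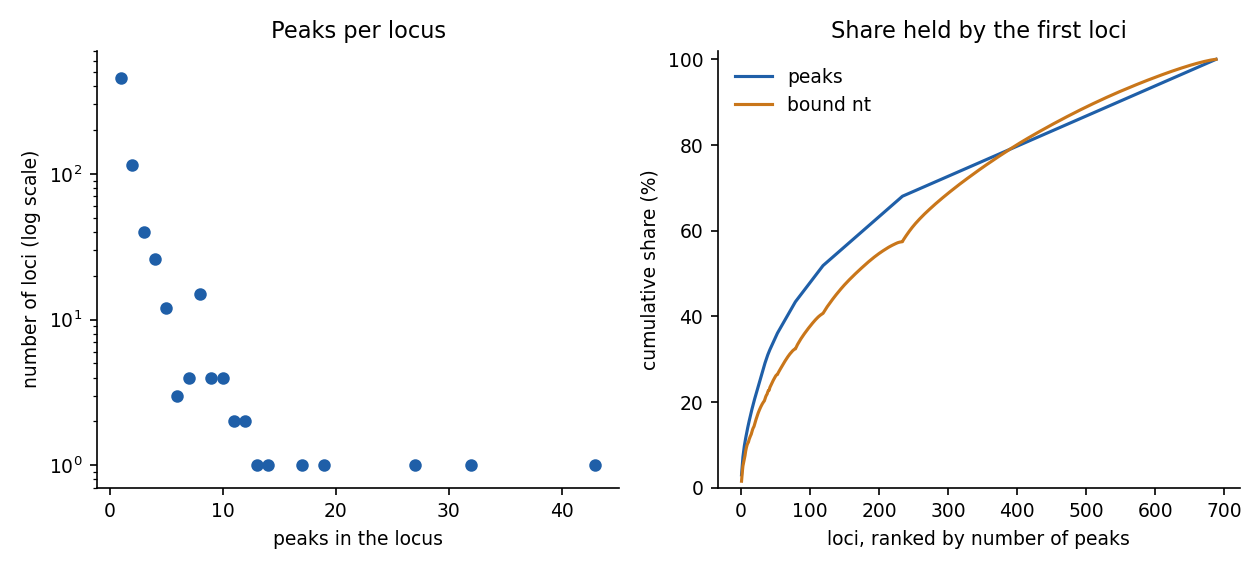
Left, the number of loci (log scale) against the number of peaks in a locus; right, the cumulative share of peaks (blue) and of bound nt (orange) over the 688 loci ranked by number of peaks. Most loci held 1 peak, 5 held between 17 and 43, and the first 50 loci held 35.0% of peaks and 26.0% of bound nt.

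Peaks of crowded loci were narrower and more enriched than lone peaks. Median width was 97 nt in loci of 1 peak, 75.5 nt in loci of 2 to 4, 56.5 nt in loci of 5 to 9 and 54 nt in loci of 10 or more. Median log2 fold over the same classes was 3.37, 3.50, 3.62 and 3.86, and median −log10 p was 9.08, 10.8, 16.5 and 18.9. A log2 fold of at least 4.5 was found in 11 of 454 lone peaks (2.42%), 23 of 454 peaks (5.07%), 36 of 262 (13.7%) and 49 of 251 (19.5%). Among peaks outside runs the order was the same, with widths of 97, 76, 62.5 and 56 nt and log2 folds of 3.37, 3.42, 3.56 and 3.73. The classes count only peaks above the lower fold limit of the list, so class and fold are not independent measures. How far that limit shapes this order was not tested. Read depth and RNA level at these loci were not analysed here, and their part in this order was not tested.

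**Figure D4:**
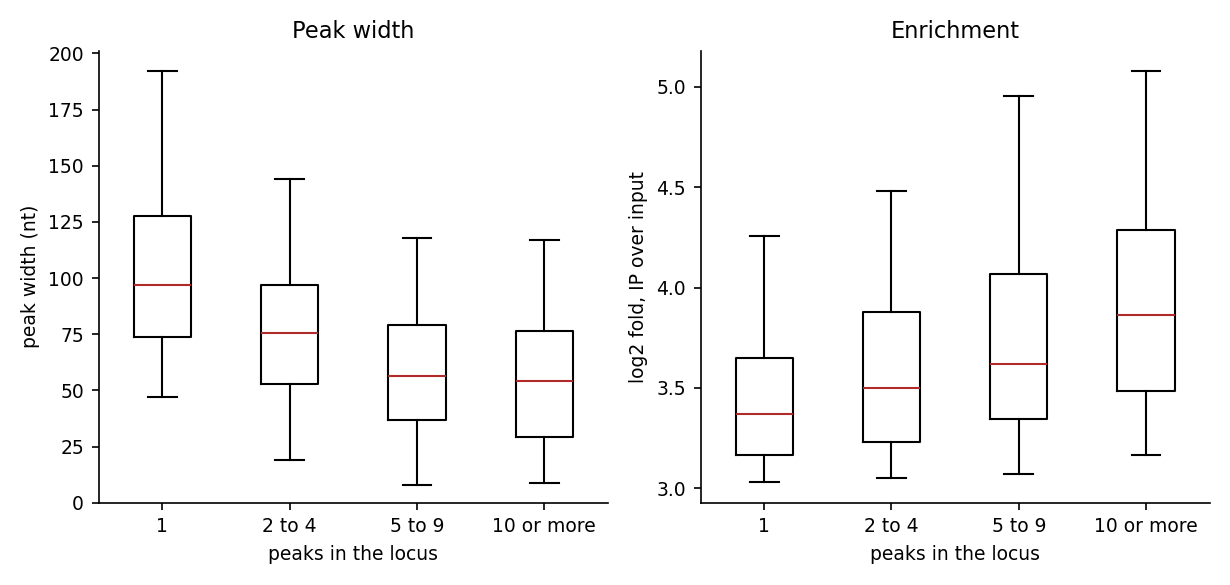
Peak width in nt (left) and log2 fold of IP over input (right) for peaks in loci of 1, 2 to 4, 5 to 9 and 10 or more peaks. The red line is the median, the box spans the quartiles and the whiskers the 5th to 95th percentiles; from lone peaks to the most crowded loci the median width went from 97 to 54 nt and the median log2 fold from 3.37 to 3.86.

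The minus strand held 796 of the 1421 peaks (56.0%, 53.4 to 58.6%), and its share differed between locus classes. It held 224 of 454 lone peaks (49.3%), 236 of 454 peaks in loci of 2 to 4 (52.0%), 190 of 262 in loci of 5 to 9 (72.5%) and 146 of 251 in loci of 10 or more (58.2%). The last share rested on the chromosome X locus with 43 peaks: without it, 103 of 208 peaks (49.5%) were on the minus strand. With it, 8 of the 15 loci of that class were. Over all loci the split was nearly even, with 357 of 688 on the minus strand (51.9%, 48.1 to 55.7%), but 454 of these were lone peaks. Of the 34 loci with at least 8 peaks, 23 were on the minus strand. The split by locus in the class of 5 to 9 peaks is not given here. Single loci also weighed on some chromosomes, with 43 of the 116 peaks of chromosome X (37.1%) and 32 of the 103 of chromosome 8 (31.1%) in 1 locus each. On chromosome 19, with 157 peaks in 79 loci, no locus held more than 12.

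The 34 loci with at least 8 peaks held 407 peaks (28.6%, 26.3 to 31.1%), and 23 of these loci were on the minus strand. They spanned 1475 to 29504 nt (median 9645.5 nt) and held 0.336 to 6.10 peaks per kb (median 1.34). Bound segments made up 1.53 to 26.4% of the span (median 6.43%). Spans and gaps were measured on the genome and include any introns, so these densities are not densities along the RNA. Their highest log2 folds ranged from 3.67 to 5.94.

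The locus with most peaks was at chromosome X, minus strand, 153577052 to 153596260. Its 43 peaks merged into 30 regions. The median peak was 39 nt wide and the median gap was 109 nt. Its log2 folds ran from 3.36 to 5.85 with a median of 4.40, and 30 of the 43 were at least 4. High values occurred along its whole length: the 5′-most peak had 5.36, the peak at 153593785 had 5.85, one near the middle (153587904 to 153587987) had 5.66 and the pair at the 3′ edge had 5.08 and 4.87. The widest stretch without a peak was 2614 nt.

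The second locus, chromosome 8, minus strand, 144990307 to 145007108, held 32 peaks and the most bound nt of any locus, 2204 nt or 13.1% of its span. Its peaks were wider (median 64 nt) and less enriched (median log2 fold 3.91, highest 5.12) than those of the first. They were also more separate, with 26 regions and 1 abutting pair, and 21 of 32 lay past the midpoint toward the 3′ edge.

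**Figure D5:**
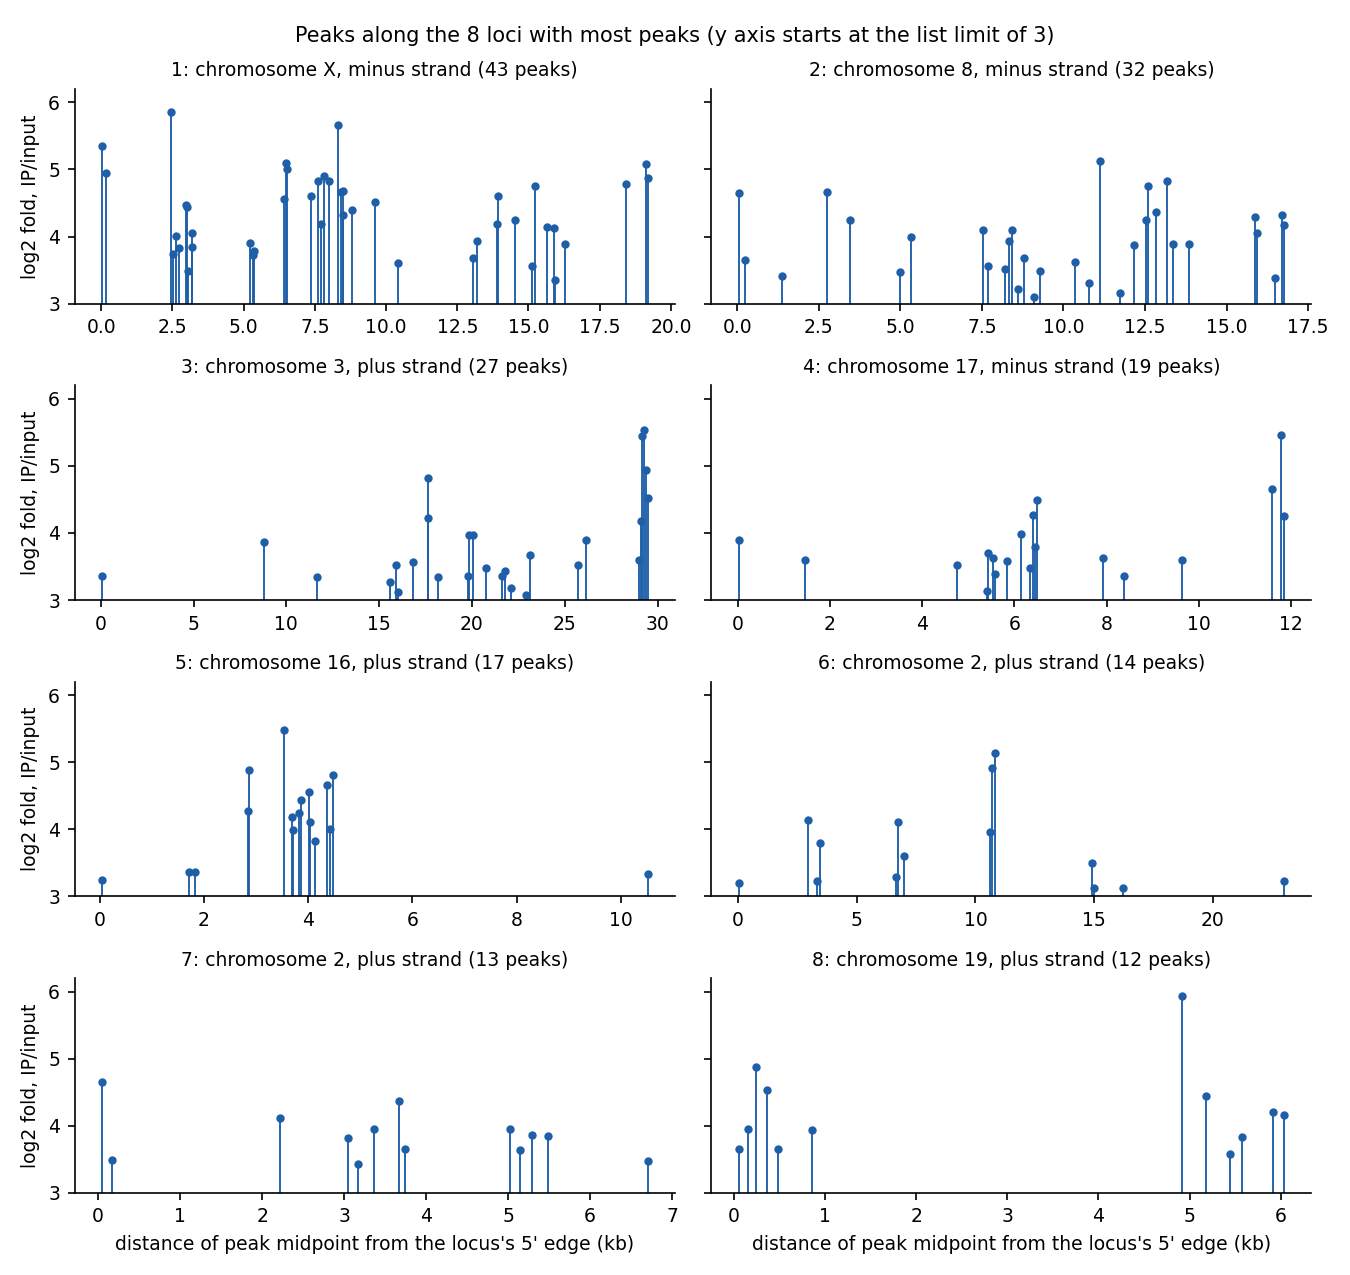
Peaks along the 8 loci with most peaks, each titled by rank, chromosome and strand, by distance of the peak midpoint from the 5′ edge of the locus in kb (x axis) and log2 fold of IP over input (y axis, starting at 3). Each line with a dot is 1 peak; the first pair of loci has peaks from end to end, whereas the highest peaks of the third and the fourth stand at the 3′ edge.

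The third locus, chromosome 3, plus strand, 184023592 to 184053095, held 27 peaks. Its first peak (log2 fold 3.36) stood 8630 nt upstream of the other 26, whose median was 3.58. Inside, an abutting pair at 184041195 to 184041232 reached 4.82 and 4.23. The highest values were at the 3′ edge, in the 541-nt region given above.

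The fourth locus, chromosome 17, minus strand, 80036498 to 80048366, held 19 peaks in 13 regions. Most lay near the middle, between 80041856 and 80043677, with log2 folds from 3.13 to 4.49. At the 3′ edge 3 peaks had 4.66, 5.45 and 4.25 from 5′ to 3′. The fifth, chromosome 16, plus strand, 30077137 to 30087666, held 17 peaks, of which 16 lay up to 30081670 with a median of 4.22 and 1 (3.33) stood 5964 nt further downstream.

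Chromosome 2 carried neighbouring loci on the plus strand, 54853129 to 54859873 with 13 peaks and 54870137 to 54893190 with 14. The upstream one was more densely bound, with 17.9% of its span in peaks against 4.66%. The downstream one held the higher maximum, 5.15 at 54880900 to 54880986, beside an abutting peak of 4.92. The upstream locus reached 4.65, in its first region.

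Several loci were split by a wide gap. On chromosome 19, plus strand, 59055944 to 59062015, 12 peaks formed groups of 6 and 6 with 3985 nt between them. The 5′ group had a median log2 fold of 3.94, and the 3′ group, with a median of 4.18, opened with the peak of 5.94. On chromosome 3, plus strand, 41266111 to 41281583, the first of 12 peaks stood 8817 nt upstream of the rest, which ended in the highest, 5.08. On chromosome X, minus strand, 112022370 to 112033971, 7 of 9 peaks including the run of 5 lay at the 3′ side, and the remaining pair (4.21 and 3.23) stood 9578 nt upstream. On chromosome 19, minus strand, 6413936 to 6424790, groups of 5 (median 3.98, the 3′ side) and 3 (median 3.50) were 9421 nt apart. On chromosome 7, minus strand, 1516029 to 1533494, 9 of 10 peaks lay beyond a gap of 8647 nt on the 3′ side and reached 5.16.

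Other heavy loci were short and tightly packed on the genome. Chromosome 19, minus strand, 49119166 to 49120640, held 9 peaks in 1475 nt, or 6.10 per kb, the highest density of the 34. An abutting trio there had 4.95, 4.83 and 4.67 from 5′ to 3′. Chromosome 16, minus strand, 28855339 to 28857573, held 11 peaks (highest 4.13), and chromosome 8, minus strand, 146015195 to 146017765, also held 11 (highest 4.15). Chromosome 7, minus strand, 5567456 to 5569283, held 8 peaks that covered 26.4% of its 1828 nt, the largest bound share of the 34. Chromosome 14, minus strand, 103986096 to 103988238, held 8 peaks in 3 regions: a run of 4 at the 5′ edge with folds up to 3.78 and, 1788 nt further, peaks of up to 5.32 at the 3′ edge.

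The remaining loci among the 20 with most peaks were intermediate or sparse. Chromosome 20, minus strand, 17597378 to 17617319, held 10 peaks with a median gap of 1901 nt and no abutting pair, and its highest, 4.45, was the 5′-most. Chromosome 1, minus strand, 226549713 to 226578272, held 10 peaks over 28560 nt with none above 4.14. Chromosome 11, plus strand, 75111434 to 75115737, held 10 (highest 4.46). Loci with 9 peaks lay at 1, plus strand, 120277262 to 120286693 (highest 4.58) and 12, plus strand, 6643703 to 6647122 (highest 4.63).

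Among the 53 loci with at least 5 peaks, density along the genome varied widely. The densest was a stretch of 70 nt on the plus strand of chromosome 5 (138614483 to 138614552) with 6 peaks, all between 3.11 and 3.76. It was followed by the chromosome 8 stretch with the highest folds, the chromosome 7 run of 5, a locus at 17, minus strand, 79825792 to 79826474 (5 peaks, highest 4.59) and the 1475-nt locus on chromosome 19. By median gap the most widely spaced was 16, minus strand, 3708160 to 3727583, with 5 peaks and 4300 nt. Next were the chromosome 1 locus with 2935 nt, 12, minus strand, 21788467 to 21797022 with 2341 nt, 8, minus strand, 48739222 to 48749044 with 2222.5 nt, and X, minus strand, 53563569 to 53587349 with 2187 nt.

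The gap rule matters for long stretches of spaced peaks. With gaps of up to 50000 nt, 6 loci on the minus strand of chromosome 8 joined into 1 of 27 peaks over 140038 nt (48686492 to 48826529), level with the joined chromosome 2 loci (27 peaks in 40062 nt). The first locus, on chromosome X, kept its 43 peaks and its edges.

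Within heavy loci the highest peak stood near the 3′ edge more often than near the 5′ edge. Of the 34 loci, it lay in the last 10% of the span in 13 and in the first 10% in 4. It was the 3′-most peak in 8, the 5′-most in 3 and neither in 23. Among the 53 loci with at least 5 peaks it was the 3′-most in 16 and the 5′-most in 6. The last 20% of the span held 122 of the 407 peaks (30.0%), 29 of them with a log2 fold of at least 4.5. The first 20% held 92 (22.6%), 11 of them at that level. Between them, successive 20% steps from 5′ to 3′ held 51, 80 and 62 peaks, with 9, 15 and 10 at that level. Median log2 fold over all steps from 5′ to 3′ was 3.62, 3.97, 3.75, 3.65 and 3.83, without a steady rise. The edges of a locus are set by its outermost peaks and are not the ends of a transcript. Every locus thus has a peak in its first and its last step by construction, which raises both counts against the inner steps. The share of all peaks in the outer 10% at each edge was not computed. The difference between the edges was not tested.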

How the data were processed

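The untreated peak list combines 2 IP and 2 input libraries. The submitters' processing notes name cutadapt, UMI-tools, STAR and hg19. How peaks were called and filtered and how replicates were merged is not given in the sources used here. The deposited list has 6 columns without a header. Its −log10 p and log2 fold values were made by the authors, and these units were inferred from the values and the usual eCLIP format. Starts count from 0 in the list and from 1 in the text. The depth is unknown.

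Distances, runs, regions (50 nt) and loci (10000 nt) were computed per strand with python 3.11.15, numpy 2.4.6, pandas 2.3.3 and scipy 1.17.1. On simulated data 360 of 360 planted loci were found, and 0 chain counts differed from bedtools 2.31.1. Shares carry exact (Clopper-Pearson) 95% intervals.

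Items named were the 20 loci with most peaks, the 10 highest peaks (1 per locus), all peaks at the stand-in p, and the 5 longest regions, runs (ties included), densest, most widely spaced and most bound loci. A few loci outside this rule, such as the chromosome 7 and chromosome 14 loci with 8 peaks, were picked after their values were seen. Members and lists were chosen with earlier results of these data known. Gene lists, transcript regions and sequence features, which need an hg19 annotation or genome, were not run.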

Additional observations from a re-analysis of the deposited data

How the results depend on the processing

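Of 23 alternative values, 7 stayed within 1.5 times (counts) or the 95% interval (percentages and medians) of the reported value, and 16 moved. Requiring a −log10 p of 5 and a log2 fold of 4 left 313 peaks, 264 regions and 168 loci. The p limit removed no peak that met the fold limit. Of these 313 peaks, 30.7% had a same-strand neighbour within 100 nt, and the 10 heaviest loci held 29.4%. With merged regions in place of peaks, 8.25% had a neighbour within 100 nt and 35.1% within 1000 nt, the 10 heaviest loci held 12.2%, 74.6% of loci had 1 member and the median width was 85 nt. Counted in bound nt, the 10 heaviest loci held 10.6%. With gaps of up to 1000 nt they held 8.09% of peaks and 73.8% of loci had 1 peak, and with gaps of up to 50000 nt these values were 16.6% and 59.9%. Without the 10 loci with most peaks the median log2 fold was 3.47. Beyond the smaller number of peaks that a stricter limit leaves by construction, the cause was not tested. Alternatives that need genes, transcript regions or sequences were not run.

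Under alternatives chosen after seeing the data, loci of 10 or more peaks had a median width of 50 to 61 nt and a median log2 fold of 3.73 to 4.12, and lone peaks had 89 to 101 nt and 3.31 to 3.40. Without the locus with most peaks, the former were 58 nt and 3.78. No paired analysis was possible because the list gives 1 value per peak for both replicates together, which also prevents leaving a replicate out.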
